A study of Mus musculus with 12 samples.

Results

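The cholesterol synthesis, fatty acid and LXR genes are 37 genes whose symbols were looked up in the deposited expression table of 43280 genes, and all 37 were found. They fall into 8 enzymes of the mevalonate pathway up to squalene, 10 enzymes from squalene to cholesterol, 5 genes of SREBP control, 3 fatty acid synthesis genes, 6 genes of LXR and cholesterol efflux and 5 genes of sterol transport, storage and oxysterol formation. RNA of bone marrow-derived macrophages (BMDM), grown from total bone marrow with 20 ng/ml M-CSF, was sequenced after poly(A) selection. The mice were of the C57BL6 strain and either wild type (wt) or *Treml4-/-*, in which *Treml4* was lost in every cell and not only in macrophages. No age or sex is given in the labels. Cells had received the vehicle PBS alone (M0) or lipopolysaccharide (LPS), a bacterial cell wall component that drives inflammatory M1 activation, at 100 ng/ml for 8 h (M1-8 h) or 12 h (M1-12 h). Each of the 6 conditions had 2 biological replicates, which gave 12 libraries. The labels do not say whether replicates came from separate mice or cultures, so p-values measure only the spread between these libraries.

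Cells make cholesterol from acetyl-CoA through mevalonate and squalene. The transcription factor SREBP2, the product of *Srebf2*, is carried by SCAP from the endoplasmic reticulum to the Golgi when sterols are low, is cleaved there, and then activates the genes of this pathway, while the INSIG proteins hold it back when sterols are high. SREBP1, from *Srebf1*, acts mostly on fatty acid synthesis, and the liver X receptors (LXR) sense oxysterols and switch on cholesterol efflux in macrophages.

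With libraries scaled by their totals, all 18 sterol enzymes were called lower at 12 h of LPS, as were 60.3% of all genes. *Ch25h* was higher. For this reason the 250 bases upstream of the RefSeq transcription start are shown for 6 members. Of these 6, *Hmgcs1*, *Cyp51*, *Msmo1* and *Mvd* are such enzymes and *Srebf2* encodes their activator. SREBP is known to bind sterol regulatory elements, searched here as the core TCACCCCA, and NF-Y to bind the CCAAT box, searched as CCAAT, each on both strands and without overlap between the motifs. Capitals mark these matches, with a CCAAT box on the reverse strand reading ATTGG. The sequences are from RefSeq on GRCm38.p6, each 5′ to 3′ on the gene's own strand. They lie at chr13:119690101-119690350 (plus strand), chr15:82147019-82147268 (plus), chr5:4104698-4104947 (minus), chr8:64733579-64733828 (minus), chr8:122443423-122443672 (minus) and chr19:34475149-34475398 (minus).
Hmgcs1: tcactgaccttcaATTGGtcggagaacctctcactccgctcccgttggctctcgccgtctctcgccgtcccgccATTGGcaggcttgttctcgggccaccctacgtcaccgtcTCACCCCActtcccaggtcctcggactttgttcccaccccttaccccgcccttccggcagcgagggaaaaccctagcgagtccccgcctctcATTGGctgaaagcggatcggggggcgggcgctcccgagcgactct
Srebf2: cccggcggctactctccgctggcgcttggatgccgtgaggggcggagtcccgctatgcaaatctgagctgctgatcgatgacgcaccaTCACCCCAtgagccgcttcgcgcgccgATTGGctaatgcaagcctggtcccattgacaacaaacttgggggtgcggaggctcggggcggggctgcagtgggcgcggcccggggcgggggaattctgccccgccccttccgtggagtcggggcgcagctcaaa
Cyp51: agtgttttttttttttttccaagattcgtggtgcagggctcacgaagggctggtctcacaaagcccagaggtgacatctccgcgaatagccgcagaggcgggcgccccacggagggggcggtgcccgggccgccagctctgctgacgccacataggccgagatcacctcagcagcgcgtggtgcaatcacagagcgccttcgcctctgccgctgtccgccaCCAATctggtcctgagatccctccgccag
Msmo1: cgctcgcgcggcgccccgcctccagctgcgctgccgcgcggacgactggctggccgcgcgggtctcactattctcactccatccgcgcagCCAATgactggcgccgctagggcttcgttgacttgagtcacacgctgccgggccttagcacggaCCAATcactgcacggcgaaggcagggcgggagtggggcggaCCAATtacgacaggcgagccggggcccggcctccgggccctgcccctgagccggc
Mvd: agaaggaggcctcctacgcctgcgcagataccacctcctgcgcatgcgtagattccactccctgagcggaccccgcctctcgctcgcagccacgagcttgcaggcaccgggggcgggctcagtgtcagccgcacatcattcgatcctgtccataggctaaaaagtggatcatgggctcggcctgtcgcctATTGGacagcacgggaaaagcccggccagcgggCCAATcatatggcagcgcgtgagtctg
Ch25h: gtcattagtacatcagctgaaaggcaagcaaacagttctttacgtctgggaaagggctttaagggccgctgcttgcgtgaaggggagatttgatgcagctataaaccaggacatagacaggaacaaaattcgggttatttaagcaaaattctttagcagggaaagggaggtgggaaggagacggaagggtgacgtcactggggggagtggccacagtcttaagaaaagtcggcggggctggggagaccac

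Of the 37 members, 29 had a RefSeq promoter entry, with 40 promoters in all. The core TCACCCCA was found upstream of 3 of the 29 members (10.3%), *Hmgcs1*, *Srebf2* and *Apoe*, and in 1.34% of all 32851 promoters. CCAAT was found upstream of 22 of the 29 members (75.9%), among them 14 of the 15 sterol enzymes with an entry, and in 33.8% of all promoters. A member counted as a match if any of its promoters held the motif, while the share over all promoters counts each one, and no test was made. These matches describe letters in the window and are no evidence of binding. The *Ch25h* window held neither motif.

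Between 48008751 and 58500792 reads were counted on genes per library, and 17369 to 18345 genes were detected per library. Values are given as CPM, read counts per 1000000 counted reads, in which 3 reads were worth 0.0513 to 0.0625 CPM, a floor that covers counting error only. *Treml4*, the targeted gene, had 8.35 and 6.57 CPM in the wt replicates at M0, 4.0 and 3.95 CPM at M1-8 h and 9.82 and 13.2 CPM at M1-12 h, and 0 reads in each of the 6 *Treml4-/-* libraries. All 7 macrophage markers were expressed in every library, with a summed level of 20468 to 27537 CPM at M0, 9951 to 12895 CPM at M1-8 h and 9712 to 10593 CPM at M1-12 h. They did not move alike. *Lyz2* (10416 to 15208 CPM at M0, 4019 to 6514 CPM at M1-8 h), *Csf1r*, *Cd68* and *Adgre1* were lower at M1-8 h. *Fcgr1* (59.6 to 65.1 CPM at M0, 1105 to 1332 CPM at M1-8 h), *Mertk* and *Itgam* were higher. The 3 T cell markers were at most at 3 reads in every library. Summed neutrophil markers ranged from 15.7 to 55.2 CPM at M0, 11.4 to 20.5 CPM at M1-8 h and 4.34 to 4.85 CPM at M1-12 h. B cell markers summed to 4.37 to 6.48 CPM at M0 and 0.186 to 0.666 CPM at M1-8 h. Most of the B cell sum was *Cd79b*, with 4.33 to 6.40 CPM at M0. Dendritic cell markers summed to 0.551 to 0.835 CPM at M0, 4.10 to 7.59 CPM at M1-8 h and 2.53 to 5.72 CPM at M1-12 h. The rise lay in *Xcr1*, with 0 CPM at M0 and 3.91 to 7.19 CPM at M1-8 h. *Flt3* was lower at M1-8 h (0.0404 to 0.223 CPM) than at M0 (0.393 to 0.713 CPM). The ranges of *Zbtb46* overlapped (0.0964 to 0.206 CPM at M0 and 0.12 to 0.186 CPM at M1-8 h). Fibroblast markers summed to at most 2.51 CPM in any library. The part of these other cell types in the results was not tested. The 5 LPS response markers summed to 83.1 to 113 CPM at M0, 24636 to 27516 CPM at M1-8 h and 23593 to 24253 CPM at M1-12 h.

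LPS changed most of the transcriptome, so the members have to be read against all genes. Tests were made with limma on log2(CPM + 1), on which changes of weakly expressed genes come out too small, over the 12086 genes with at least 1 CPM in 2 libraries, and all 37 members passed this filter. A gene was called when its Benjamini-Hochberg adjusted p was under 0.05 and its fold change at least 1.4. The median log2 fold change of all 12086 genes was -0.72 at 8 h and -0.76 at 12 h when libraries were scaled by their totals, and 0.01 and 0.03 with median of ratios scaling, which sets the typical gene to no change. The 100 most abundant genes took 27.9 to 30.4% of reads at M0, 32.4 to 33.5% at M1-8 h and 36.1 to 37.3% at M1-12 h. Log2 fold changes below are on the library-total scale. Those of most members against M0 have the median of ratios value beside them, and those from 8 to 12 h do not. In bulk RNA, fewer cells of a type and less RNA per cell cannot be told apart.

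**Figure D1:**
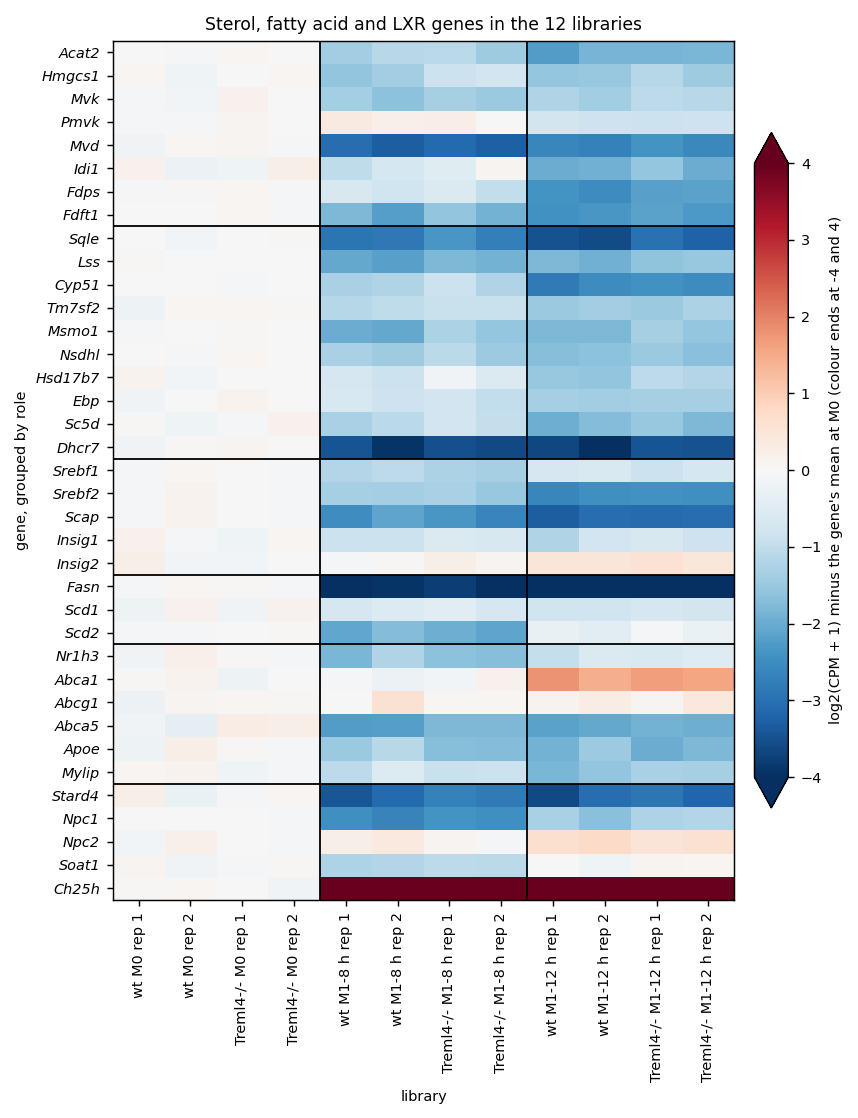
Level of the 37 genes in each of the 12 libraries, as log2(CPM + 1) minus the gene's mean over the 4 M0 libraries (blue lower, red higher, colours end at -4 and 4); rows are grouped by role and columns by LPS time and genotype. Most enzyme rows are blue in all 8 LPS libraries, *Ch25h* is dark red in all 8, and *Abca1* is red only in the 4 libraries of M1-12 h.

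At 8 h of LPS, 31 of the 37 members were called lower and 1, *Ch25h*, higher than at M0, taking the mean of both genotypes. Among all 12086 genes, 59.8% were called lower and 17.1% higher. With median of ratios scaling, 18 of the 36 members tested were called lower and 6 higher, beside 30.2% and 32.5% of 11919 genes (*Scd1* did not pass the filter there). At 12 h the counts were 30 lower and 4 higher, with 60.3% of all genes lower and 16.3% higher, and with median of ratios scaling 23 lower and 7 higher, beside 31.5% and 34.3%. The members' median log2 fold change was -1.21 at 8 h and -1.51 at 12 h, and -0.45 and -0.74 with median of ratios scaling. The filter set the direction of 3 members, since *Scd1* and *Abca5* reached 1 CPM only in M0 libraries and *Ch25h* only in LPS libraries. Without them 29 of 34 were lower and 0 higher at 8 h and 28 lower and 3 higher at 12 h, or 17 and 5 and then 22 and 6 with median of ratios scaling. Both LPS comparisons share the M0 libraries. Reads of all members together made up 0.570 to 0.665% of a library at M0, 0.319 to 0.414% at M1-8 h and 0.419 to 0.472% at M1-12 h.

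The 18 sterol synthesis enzymes fell together at 12 h on the library-total scale, while *Mvk* and *Pmvk* were not called with median of ratios scaling. Their CPM summed to 673 to 716 in the M0 libraries, 243 to 310 at M1-8 h and 156 to 191 at M1-12 h, without overlap between the time points. The enzymes' median log2 fold change was -1.20 at 8 h and -1.73 at 12 h, and -0.43 and -0.90 with median of ratios scaling or -0.56 and -0.98 with quantile normalization. Among all genes 59.8% were called lower at 8 h and 60.3% at 12 h, or 30.2% and 31.5% with median of ratios scaling. At 8 h 17 of the 18 enzymes were called lower, and with median of ratios scaling 9 were called lower and 1, *Pmvk*, higher. At 12 h all 18 were called lower, and 16 of the 18 with median of ratios scaling (*Mvk* was at -0.37 and *Pmvk* at 0.02).

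In the mevalonate part, *Mvd*, mevalonate diphosphate decarboxylase, fell the most at 8 h. It had 38.0 and 44.0 CPM in wt and 44.5 and 39.9 CPM in *Treml4-/-* cells at M0, 4.10 and 3.34 CPM in wt and 3.93 and 3.46 CPM in *Treml4-/-* cells at M1-8 h and 5.93 and 5.52 CPM in wt and 7.06 and 6.18 CPM in *Treml4-/-* cells at M1-12 h. All LPS libraries were below all M0 libraries, and the 12 h libraries lay above the 8 h libraries. Its log2 fold change was -3.18 ± 0.09 (SE) at 8 h and -2.57 ± 0.09 (SE) at 12 h (limma, adjusted p = 3.99e-11 and 2.15e-10), or -2.42 and -1.75 with median of ratios scaling. From 8 to 12 h it rose by a log2 fold change of 0.61 (limma, adjusted p = 0.000187).

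*Fdps*, farnesyl diphosphate synthase, showed the opposite order in time. Its level was 85.6 and 92.1 CPM in wt and 95 and 84.9 CPM in *Treml4-/-* cells at M0, 56.8 and 51.0 CPM in wt and 59.3 and 44.7 CPM in *Treml4-/-* cells at M1-8 h and 16.1 and 14.8 CPM in wt and 19.1 and 19.4 CPM in *Treml4-/-* cells at M1-12 h. The 3 time points did not overlap, with the larger step between 8 and 12 h, a log2 fold change of -1.56 ± 0.09 (SE; limma, adjusted p = 1.69e-07). Against M0 the 8 h value was -0.75, which matched the median of all genes and was 0.06 with median of ratios scaling. The 12 h value was -2.31 or -1.45. In GENCODE M21, 26.7% of the *Fdps* exon bases overlap the protein-coding *Gm43738* on the same strand, which has no deposited values. *Idi1*, which isomerizes isopentenyl diphosphate, had 6.11 and 4.35 CPM in wt and 4.64 and 6.45 CPM in *Treml4-/-* cells at M0 and 2.14 and 2.86 CPM in wt and 3.54 and 5.76 CPM in *Treml4-/-* cells at M1-8 h, ranges that overlap, and 0.595 and 0.655 CPM in wt and 1.15 and 0.59 CPM in *Treml4-/-* cells at M1-12 h, below both. Its 8 h log2 fold change of -0.53 turned to 0.14 with median of ratios scaling and lost its call without wt M0 replicate 1, wt M1-8 h replicate 1, *Treml4-/-* M0 replicate 2 or *Treml4-/-* M1-8 h replicate 1, with values of -0.45 to -0.38. *Pmvk*, phosphomevalonate kinase, had 23.1 to 26.4 CPM at M0, 24.4 to 31.1 CPM at M1-8 h and 13.0 to 14.1 CPM at M1-12 h. It was the only enzyme with a positive 8 h value on the library-total scale (0.20, not called; 1.00 with median of ratios scaling), and its 12 h value of -0.82 was 0.02 with median of ratios scaling.

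*Hmgcs1*, the HMG-CoA synthase that feeds the pathway, lies on chromosome 13 from 119690379 to 119708260 of GRCm38. It had 56.4 and 46.8 CPM in wt and 53.3 and 56.7 CPM in *Treml4-/-* cells at M0, 17.3 and 19.6 CPM in wt and 28.6 and 31.0 CPM in *Treml4-/-* cells at M1-8 h and 17.5 and 17.9 CPM in wt and 23.4 and 19.3 CPM in *Treml4-/-* cells at M1-12 h, so both wt libraries at 8 h lay below both *Treml4-/-* libraries. The log2 fold change was -1.15 ± 0.09 (SE) at 8 h and -1.41 ± 0.09 (SE) at 12 h (limma, adjusted p = 1.19e-07 and 1.79e-08), or -0.34, no longer called, and -0.56 with median of ratios scaling. The remaining mevalonate genes are *Acat2*, the cytosolic acetyl-CoA acetyltransferase, *Mvk*, mevalonate kinase, and *Fdft1*, squalene synthase. *Acat2* went from 12.2 ± 0.701 CPM (SD, n = 4) at M0 to 4.56 ± 0.699 CPM (SD, n = 4) and 2.45 ± 0.445 CPM (SD, n = 4). *Mvk* was at 18.7 ± 1.90 CPM, 6.19 ± 0.716 CPM and 7.68 ± 0.901 CPM (SD, n = 4 each), lowest at 8 h. *Fdft1* was at 51.5 ± 2.32 CPM, 13.6 ± 2.55 CPM and 9.72 ± 0.868 CPM (SD, n = 4 each). In GENCODE M21, 18.3% of the *Fdft1* exon bases overlap *Ctsb* on the opposite strand, which had 7247 to 12447 CPM, and the sources used here do not state whether counting used strand, so reads of the 2 genes may have been mixed.

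**Figure D2:**
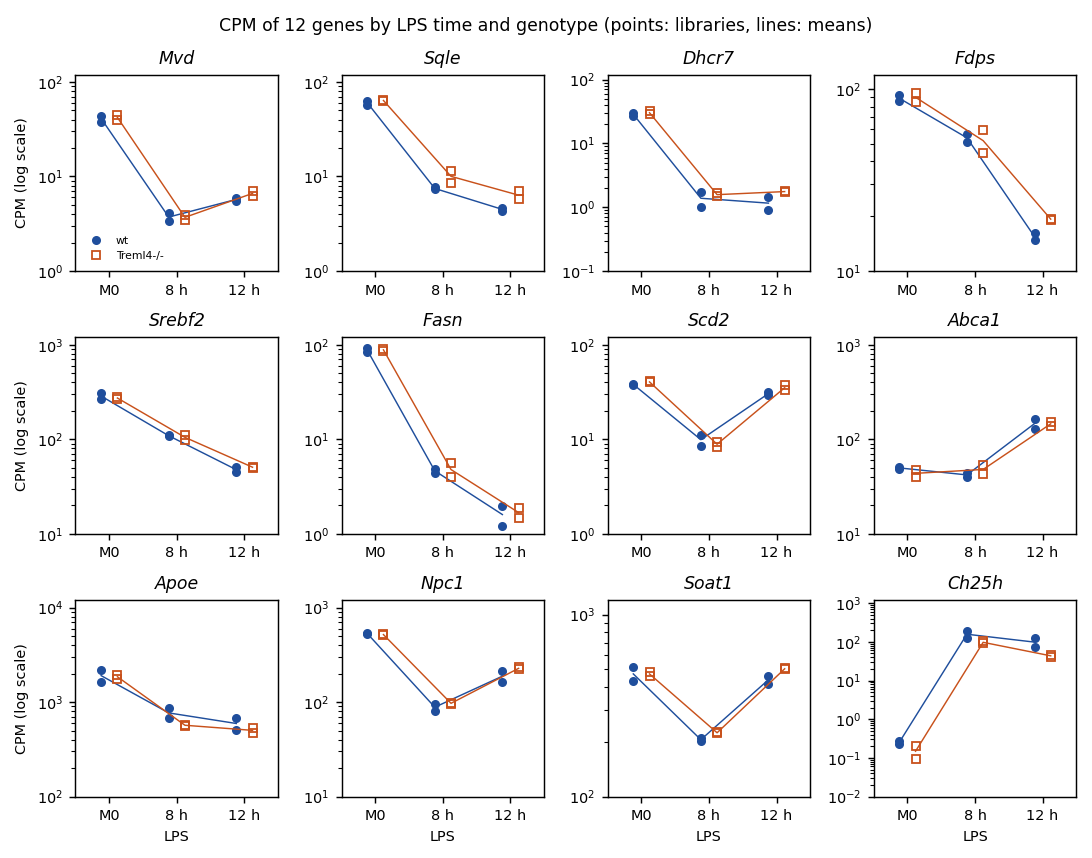
CPM on a log axis of 12 genes in each library at M0, 8 h and 12 h of LPS, with wt as filled circles, Treml4-/- as open squares and lines through the means of each genotype. *Mvd*, *Scd2*, *Npc1* and *Soat1* have their lowest libraries at 8 h, *Fdps*, *Srebf2* and *Fasn* at 12 h, and *Ch25h* goes from at most 0.275 CPM at M0 to at least 41.0 CPM after LPS.

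Of the enzymes after squalene, *Dhcr7*, the last reductase of the pathway, and *Sqle*, squalene epoxidase, fell the most. *Dhcr7* had 26.7 and 30.4 CPM in wt and 31.6 and 28.8 CPM in *Treml4-/-* cells at M0, 1.76 and 1.00 CPM in wt and 1.64 and 1.5 CPM in *Treml4-/-* cells at M1-8 h and 1.42 and 0.893 CPM in wt and 1.79 and 1.72 CPM in *Treml4-/-* cells at M1-12 h. Its log2 fold change was -3.63 ± 0.12 (SE) at 8 h and -3.64 ± 0.12 (SE) at 12 h (limma, adjusted p = 9.94e-11 and 1e-10), or -2.92 and -2.91 with median of ratios scaling. All LPS libraries were far below all M0 libraries, and the 8 h and 12 h libraries overlapped. *Sqle* had 63.1 and 57.7 CPM in wt and 63.1 and 64.4 CPM in *Treml4-/-* cells at M0, 7.29 and 7.65 CPM in wt and 11.6 and 8.51 CPM in *Treml4-/-* cells at M1-8 h and 4.68 and 4.29 CPM in wt and 6.96 and 5.73 CPM in *Treml4-/-* cells at M1-12 h. Every 12 h library was below every 8 h library, and the log2 fold change was -2.71 ± 0.10 (SE) at 8 h and -3.32 ± 0.10 (SE) at 12 h (limma, adjusted p = 2.42e-10 and 5.11e-11), or -1.92 and -2.49 with median of ratios scaling.

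*Cyp51*, the lanosterol demethylase, was lower at 8 h and lower again at 12 h, with 58.3 and 56.8 CPM in wt and 55.9 and 57.6 CPM in *Treml4-/-* cells at M0, 22.5 and 24.0 CPM in wt and 31.2 and 24.1 CPM in *Treml4-/-* cells at M1-8 h and 7.25 and 9.09 CPM in wt and 9.96 and 9.25 CPM in *Treml4-/-* cells at M1-12 h. Against M0 its log2 fold changes were -1.15 and -2.56, or -0.34, not called, and -1.72 with median of ratios scaling. Between 8 and 12 h its log2 fold change was -1.42 ± 0.09 (SE; limma, adjusted p = 4.11e-07). *Msmo1*, the methylsterol monooxygenase, had 67.8 and 70.7 CPM in wt and 72.5 and 69.4 CPM in *Treml4-/-* cells at M0, 16.9 and 16.2 CPM in wt and 28.3 and 23.4 CPM in *Treml4-/-* cells at M1-8 h and 19.3 and 19.5 CPM in wt and 27.1 and 23.1 CPM in *Treml4-/-* cells at M1-12 h. Its 8 h and 12 h libraries overlapped (log2 fold change from 8 to 12 h 0.09, 95% interval -0.08 to 0.26), and both wt libraries lay below both *Treml4-/-* libraries at either LPS time. *Lss*, lanosterol synthase, was at 46.1 ± 1.05 CPM, 11 ± 1.29 CPM and 13.5 ± 1.67 CPM (SD, n = 4 each), with log2 fold changes against M0 of -1.97 and -1.71, or -1.18 and -0.86 with median of ratios scaling.

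*Nsdhl* and *Hsd17b7*, which act in C4 demethylation, *Ebp*, the sterol isomerase, and *Sc5d*, the sterol C5-desaturase, fell in a narrower range. On the library-total scale their 8 h log2 fold changes were -1.31, -0.56, -0.81 and -1.03 in that order, and -0.52, 0.17, -0.01 and -0.24 with median of ratios scaling, so of these 4 only *Nsdhl* kept its call. *Hsd17b7* at 8 h thus changed its sign with the scaling, and it lost its call without *Treml4-/-* M1-8 h replicate 2 (-0.45). At 12 h the values were -1.63, -1.32, -1.34 and -1.75, or -0.80, -0.57, -0.49 and -0.93, all called under both scalings. *Tm7sf2*, a sterol C14-reductase, was weakly expressed, with 5.44 to 6.90 CPM at M0, 2.38 to 2.99 CPM at M1-8 h and 1.67 to 2.08 CPM at M1-12 h. It shares 12.1% of its exon bases with *Vps51* on the same strand, so its reads could have been split with that gene. *Nsdhl*, *Ebp* and *Sc5d* were at 34.0, 49.4 and 28.1 CPM on average at M0, and *Hsd17b7* at 9.57 CPM.

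From 8 to 12 h, 14 of the 37 members were called lower and 7 higher, while 18.7% of all genes were called lower and 13.5% higher. Of the 18 enzymes, 9 were lower, 8 were not called, and *Mvd* was higher. The median of all genes was -0.06 between these times, so this comparison depends less on scaling than those with M0.

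The SREBP control genes split. *Srebf2* had 267 and 306 CPM in wt and 278 and 269 CPM in *Treml4-/-* cells at M0, 109.9 and 108 CPM in wt and 112 and 97.5 CPM in *Treml4-/-* cells at M1-8 h and 44.6 and 50.7 CPM in wt and 51.1 and 50.1 CPM in *Treml4-/-* cells at M1-12 h, with no overlap between the time points. Its log2 fold change was -1.38 ± 0.07 (SE) at 8 h and -2.49 ± 0.07 (SE) at 12 h (limma, adjusted p = 3.96e-09 and 3.55e-11), or -0.56 and -1.61 with median of ratios scaling. *Scap*, the escort protein, fell further, from 76.7 and 89.7 CPM in wt and 80.2 and 76.7 CPM in *Treml4-/-* cells at M0 to 13.6 and 18.0 CPM in wt and 15.2 and 12.0 CPM in *Treml4-/-* cells at M1-8 h and 7.25 and 8.97 CPM in wt and 8.67 and 8.78 CPM in *Treml4-/-* cells at M1-12 h, with log2 fold changes of -2.39 ± 0.11 (SE) and -3.12 ± 0.11 (SE) (limma, adjusted p = 1.6e-09 and 1.88e-10), or -1.59 and -2.28. *Srebf1* had 91.2 to 98.2 CPM at M0, 36.5 to 45 CPM at M1-8 h and 51.6 to 60.5 CPM at M1-12 h. It was lowest at 8 h, with a log2 fold change of -1.21, or -0.39 and not called with median of ratios scaling, and its 12 h log2 fold change of -0.71 was at the median of all genes and 0.16 with median of ratios scaling.

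The 2 INSIG genes, whose products retain SCAP, differed from each other. *Insig1* had 30.9 to 39.7 CPM at M0, 18.9 to 23.3 CPM at M1-8 h and 14.7 to 22.0 CPM at M1-12 h. Its log2 fold changes of -0.73 and -0.86 were near the median of all genes, and 0.07 and -0.01 with median of ratios scaling. *Insig2* had 27.4 and 21.5 CPM in wt and 21.3 and 23.0 CPM in *Treml4-/-* cells at M0, 22.5 to 27.2 CPM at M1-8 h and 33.0 and 33.1 CPM in wt and 35.0 and 32.4 CPM in *Treml4-/-* cells at M1-12 h, every 12 h library being above every M0 library. Its 12 h log2 fold change was 0.51 ± 0.08 (SE; limma, adjusted p = 0.000104), or 1.35 with median of ratios scaling, and on the library-total scale it lost its call without any of 3 single libraries, wt M0 replicate 2, *Treml4-/-* M0 replicate 1 or *Treml4-/-* M1-12 h replicate 1, with values of 0.42 to 0.48.

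*Fasn*, fatty acid synthase, had the most negative log2 fold change of all members at both times, although at 8 h the mean CPM of *Dhcr7* fell more, by 19.9-fold. The level of *Fasn* was 83.3 and 92.5 CPM in wt and 91.1 and 85.7 CPM in *Treml4-/-* cells at M0, 4.42 and 4.85 CPM in wt and 5.56 and 4.01 CPM in *Treml4-/-* cells at M1-8 h and 1.21 and 1.98 CPM in wt and 1.87 and 1.48 CPM in *Treml4-/-* cells at M1-12 h. Its mean CPM were 18.7-fold lower at 8 h and 53.9-fold lower at 12 h, and the log2 fold change was -3.97 ± 0.12 (SE) and -5.09 ± 0.12 (SE) (limma, adjusted p = 5.22e-11 and 8.1e-12), or -3.19 and -4.33 with median of ratios scaling. The stearoyl-CoA desaturases *Scd1* and *Scd2*, which introduce a double bond into saturated fatty acids, were expressed at very different levels. *Scd1* had 0.656 to 1.14 CPM at M0, 0.182 to 0.393 CPM at M1-8 h and 0.0959 to 0.187 CPM at M1-12 h, so it passed the filter only through its M0 libraries and had to be lower after LPS. *Scd2* had 37.9 and 38.3 CPM in wt and 40.0 and 41.0 CPM in *Treml4-/-* cells at M0, 8.58 and 11.2 CPM in wt and 9.38 and 8.34 CPM in *Treml4-/-* cells at M1-8 h and 31.5 and 29.4 CPM in wt and 37.4 and 32.9 CPM in *Treml4-/-* cells at M1-12 h. It fell at 8 h with a log2 fold change of -1.96 ± 0.09 (SE; limma, adjusted p = 1.35e-09; -1.18 with median of ratios scaling) and rose from 8 to 12 h by 1.71 ± 0.09 (SE; limma, adjusted p = 8.33e-08). Against M0 the 12 h value was -0.26 and not called, or 0.60 and called higher with median of ratios scaling.

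**Figure D3:**
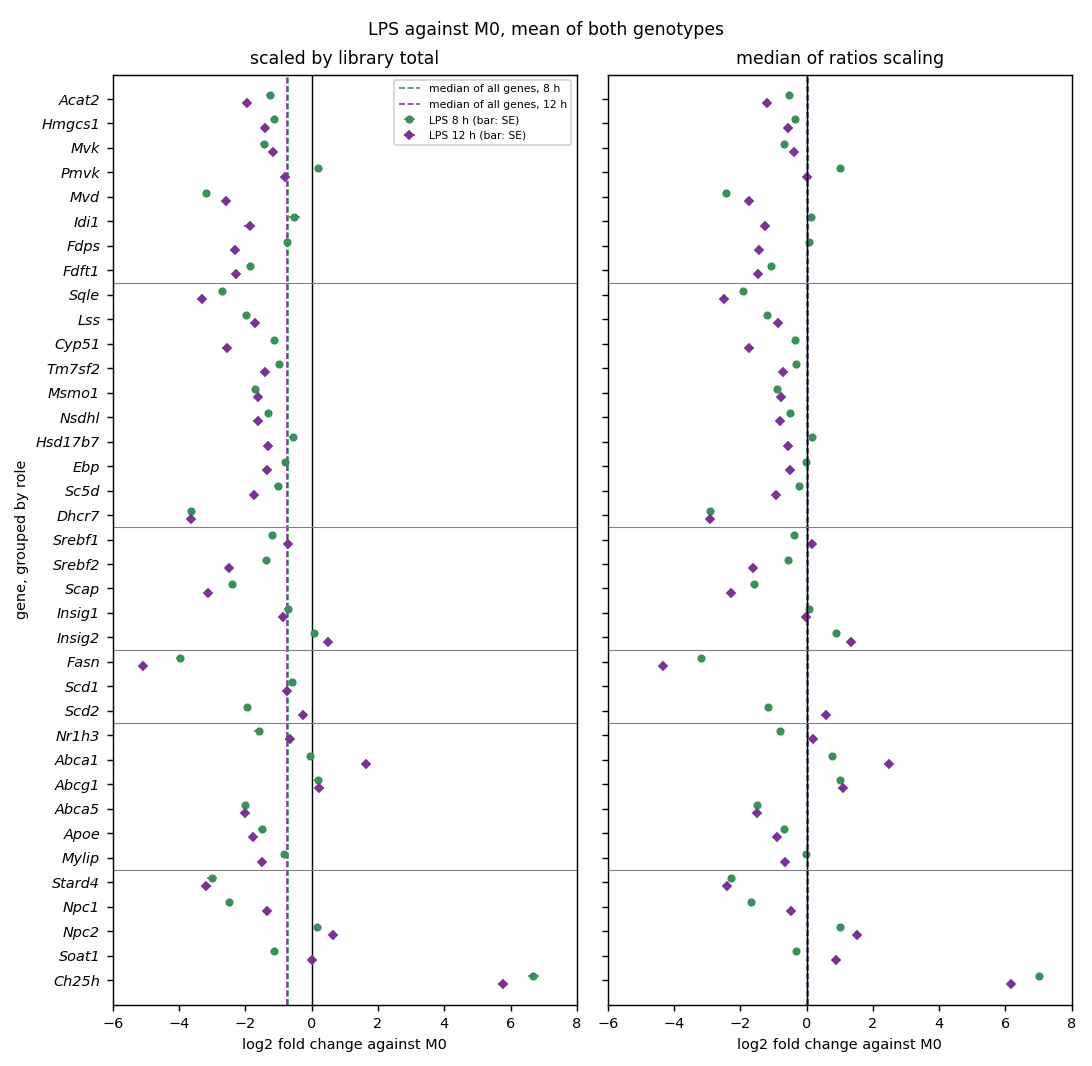
Log2 fold change of each gene after 8 h (circles) and 12 h (diamonds) of LPS against M0, mean of both genotypes, scaled by library total with SE bars (left) and with median of ratios scaling without error bars (right); dashed lines mark the median of all genes tested. On the left that median is -0.72 and -0.76, so *Insig1* and *Fdps* at 8 h lie on it, while *Fasn*, *Dhcr7*, *Scap* and *Stard4* lie far below it on both sides and *Ch25h* far above. *Scd1* has no point on the right.

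Of the LXR and efflux genes, *Abca1*, the transporter that loads cholesterol onto apolipoprotein A-I, rose late. It had 48.4 and 51.1 CPM in wt and 40.0 and 47.2 CPM in *Treml4-/-* cells at M0, 44.5 and 39.4 CPM in wt and 43.0 and 52.8 CPM in *Treml4-/-* cells at M1-8 h and 165 and 128 CPM in wt and 152 and 139.8 CPM in *Treml4-/-* cells at M1-12 h. The M0 and 8 h libraries overlapped and the 12 h libraries were all higher. Its log2 fold change was 1.62 ± 0.10 (SE) at 12 h (limma, adjusted p = 1.79e-08), or 2.49 with median of ratios scaling. At 8 h the value was -0.06 (95% interval -0.28 to 0.16) and not called, or 0.75 and called higher with median of ratios scaling. *Abcg1*, which exports cholesterol to HDL, had 124 to 159 CPM at M0, 146 to 222 CPM at M1-8 h and 157 to 196 CPM at M1-12 h. These ranges overlap, and neither LPS value was called on the library-total scale (0.19, 95% interval -0.10 to 0.47, and 0.23, -0.05 to 0.52), while both were called higher with median of ratios scaling (1.01 and 1.11).

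*Nr1h3*, which encodes LXRα, had 38.2 and 48.7 CPM in wt and 44.1 and 40.2 CPM in *Treml4-/-* cells at M0, 11.2 and 17.8 CPM in wt and 12.8 and 12.5 CPM in *Treml4-/-* cells at M1-8 h and 21.6 and 28.4 CPM in wt and 27.7 and 29.5 CPM in *Treml4-/-* cells at M1-12 h. The 3 time points did not overlap, and the 8 h libraries were the lowest. Its log2 fold change was -1.60 ± 0.14 (SE) at 8 h (limma, adjusted p = 3.76e-07; -0.81 with median of ratios scaling), it rose from 8 to 12 h by 0.94, and the 12 h value against M0 was -0.66 or, with median of ratios scaling, 0.20 and not called. *Apoe*, the apolipoprotein E that macrophages secrete, was the most abundant member per length at M0, with 879 CPM per kb of exon. Its level was 1615 and 2193 CPM in wt and 1934 and 1774 CPM in *Treml4-/-* cells at M0, 672 and 864 CPM in wt and 578 and 558 CPM in *Treml4-/-* cells at M1-8 h and 507 and 679 CPM in wt and 469 and 534 CPM in *Treml4-/-* cells at M1-12 h. All LPS libraries were below all M0 libraries, and the log2 fold change was -1.50 ± 0.12 (SE) and -1.78 ± 0.12 (SE) (limma, adjusted p = 2.47e-07 and 5.09e-08), or -0.68 and -0.90 with median of ratios scaling. *Mylip*, an LXR target that marks the LDL receptor for degradation, had 79.4 to 98.5 CPM at M0, 42.9 to 60.7 CPM at M1-8 h and 24.5 to 35.9 CPM at M1-12 h, with log2 fold changes of -0.84 and -1.51, or -0.02, not called, and -0.64. *Abca5*, a lysosomal transporter, was weak, with 3.91 and 3.13 CPM in wt and 5.62 and 5.41 CPM in *Treml4-/-* cells at M0, 0.141 and 0.186 CPM in wt and 0.564 and 0.549 CPM in *Treml4-/-* cells at M1-8 h and 0.23 and 0.298 CPM in wt and 0.458 and 0.399 CPM in *Treml4-/-* cells at M1-12 h, and its log2 fold change was -2.01 at either time, or -1.50 and -1.48. It passed the filter only through its M0 libraries and had to be lower after LPS, so no test is given.

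The transport and storage genes moved in different directions. *Ch25h*, the hydroxylase that makes the oxysterol 25-hydroxycholesterol, had the largest increase in CPM of all members, relative to M0. Its single exon lies on chromosome 19 from 34473778 to 34475164 of GRCm38, minus strand. At M0 it had 12 and 14 reads in wt and 10 and 5 reads in *Treml4-/-* libraries, against 129.5 and 185 CPM in wt and 90.8 and 104 CPM in *Treml4-/-* cells at M1-8 h and 72.6 and 124 CPM in wt and 41.0 and 46.1 CPM in *Treml4-/-* cells at M1-12 h. Mean CPM were 634-fold higher at 8 h and 353-fold higher at 12 h, and it passed the filter only through its LPS libraries, so it had to be higher there and no test against M0 is given. On the log2(CPM + 1) scale its log2 fold change was 6.69 at 8 h and 5.77 at 12 h, with a decrease from 8 to 12 h of -0.92 (limma, adjusted p = 0.00045). An antisense gene, *Gm26902*, overlaps 11.5% of its exon bases and had 0.0187 to 6.61 CPM.

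*Npc1* and *Npc2*, whose products together move cholesterol out of lysosomes, did not change alike. *Npc1* had 534 and 531 CPM in wt and 525 and 511 CPM in *Treml4-/-* cells at M0, 95.3 and 81.2 CPM in wt and 98.9 and 95.1 CPM in *Treml4-/-* cells at M1-8 h and 212 and 164 CPM in wt and 221 and 234 CPM in *Treml4-/-* cells at M1-12 h. The 3 time points did not overlap, with a log2 fold change of -2.49 ± 0.08 (SE) at 8 h (limma, adjusted p = 1.06e-10; -1.67 with median of ratios scaling) and a rise of 1.15 ± 0.08 (SE) from 8 to 12 h (limma, adjusted p = 6.87e-07). With median of ratios scaling its 12 h value against M0 was -0.47 and no longer called. *Npc2* had 1396 and 1757 CPM in wt and 1527 and 1431 CPM in *Treml4-/-* cells at M0, 1787 and 1988 CPM in wt and 1645 and 1469 CPM in *Treml4-/-* cells at M1-8 h and 2384 and 2612 CPM in wt and 2182 and 2318 CPM in *Treml4-/-* cells at M1-12 h. Only its 12 h libraries were all above M0, with a log2 fold change of 0.64 ± 0.08 (SE; limma, adjusted p = 1.84e-05; 1.52 with median of ratios scaling), but with quantile normalization the value was 0.12 and not called (limma, adjusted p = 0.141).

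*Soat1*, which esterifies cholesterol for storage in lipid droplets, fell and came back. It had 512 and 432 CPM in wt and 461 and 483 CPM in *Treml4-/-* cells at M0, 201 and 209 CPM in wt and 225 and 223 CPM in *Treml4-/-* cells at M1-8 h and 461 and 415 CPM in wt and 505 and 501 CPM in *Treml4-/-* cells at M1-12 h. The 12 h libraries overlapped those of M0. Its log2 fold change was -1.13 ± 0.07 (SE) at 8 h (limma, adjusted p = 1.15e-08) or -0.31, not called, with median of ratios scaling, and 1.13 ± 0.07 (SE) from 8 to 12 h (limma, adjusted p = 1.69e-07). Against M0 at 12 h it was -0.0046 (95% interval -0.15 to 0.14), or 0.87 and called higher with median of ratios scaling. *Stard4*, a cytosolic sterol carrier, had 36.3 and 25.4 CPM in wt and 29.3 and 32.1 CPM in *Treml4-/-* cells at M0, 1.96 and 2.62 CPM in wt and 3.86 and 3.42 CPM in *Treml4-/-* cells at M1-8 h and 1.55 and 2.82 CPM in wt and 3.21 and 2.52 CPM in *Treml4-/-* cells at M1-12 h, with log2 fold changes of -3.02 ± 0.15 (SE) and -3.18 ± 0.15 (SE) (limma, adjusted p = 3.18e-09 and 1.92e-09), or -2.27 and -2.41.

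A list of 26 other genes of these pathways, 25 of which passed the filter, was counted in the same fit. At 8 h 1 was called higher and 23 lower, and at 12 h 2 higher and 22 lower, with medians of -1.39 and -1.99. Among all genes 17.1% were called higher and 59.8% lower at 8 h, and 16.3% and 60.3% at 12 h. The medians of all genes were -0.72 and -0.76. With median of ratios scaling the counts were 2 higher and 15 lower at 8 h and 3 higher and 18 lower at 12 h. There the list's medians were -0.74 and -1.20, and 30.2% and 31.5% of all genes were called lower and 32.5% and 34.3% higher. Values of single genes of this list are on the library-total scale alone. *Fads1*, a desaturase of polyunsaturated fatty acids, fell the most, from 174 CPM on average at M0 to 5.30 CPM at 8 h and 3.96 CPM at 12 h, with log2 fold changes of -4.80 and -5.15. Also called lower were *Lpin1*, a phosphatidate phosphatase (-4.0 at 8 h and -3.48 at 12 h), and *Rxra*, the partner of LXR (-3.42 at 8 h). *Ggps1*, geranylgeranyl diphosphate synthase, was called higher at 8 h (0.52) and 12 h (0.68), and *Acss2*, which makes acetyl-CoA from acetate, at 12 h (0.82) after -1.02 at 8 h. *Nr1h2*, the gene of LXRβ, was called at neither time.

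Over the 12 libraries, the genes outside the members whose log2(CPM + 1) was most like the mean of the z-scored sterol enzymes were *Farsb* (Pearson's r = 0.999), a subunit of a tRNA synthetase, *Pusl1* (0.997) and *Cd9* (0.997), a tetraspanin. The 12 points fall into 3 time points of 4 libraries each and are not independent, and no test was made. *Cd9* had 791 to 873 CPM at M0, 226 to 272 CPM at M1-8 h and 109 to 148 CPM at M1-12 h.

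The genotype comparison asked whether loss of *Treml4* changed these genes. In this fit on log2(CPM + 1), no member was called at any of the 3 time points. The paper used DESeq2 at the same thresholds and reported more genes for M1 cells than were called here. It named *Abca5* among the lipid regulation genes affected by *Treml4*. Among all genes 0.0993%, 0.0910% and 0.132% were called at these times, and an unadjusted p under 0.05 was reached by 1, 11 and 8 of the 37 members, and by 3.35%, 21.0% and 7.55% of all genes. Fold changes are wt minus *Treml4-/-*. At M0 the members' median was -0.02 and the range -0.53 to 0.22. *Abca5*, at -0.53, was the member with the unadjusted p under 0.05 at M0 (limma, adjusted p = 0.259), and both wt libraries lay below both *Treml4-/-* libraries. Without wt M0 replicate 1, which left 1 wt library at M0, the value of *Abca5* was -0.66.

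**Figure D4:**
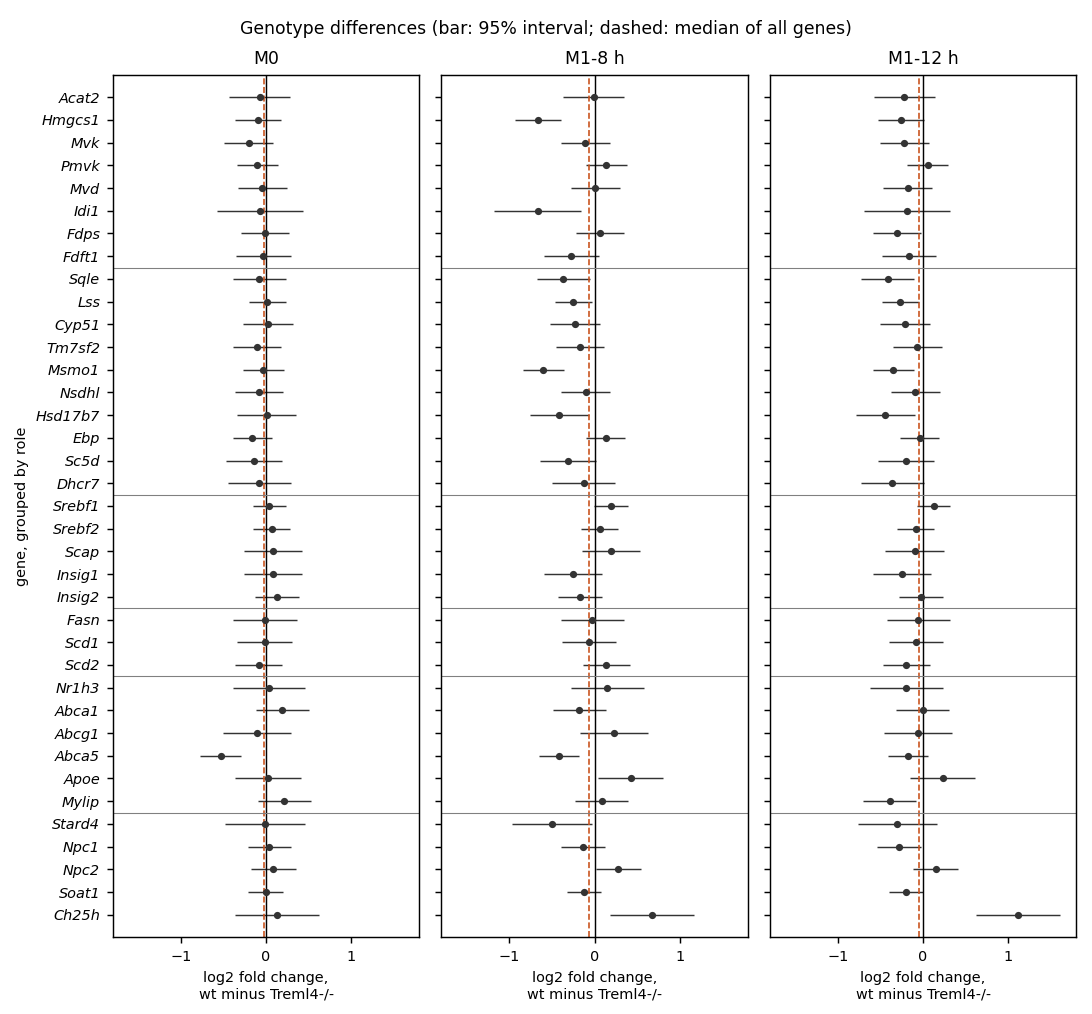
Log2 fold change of wt minus Treml4-/- for each gene at each of the 3 time points, with 95% intervals from limma that are not adjusted for the number of genes; dashed lines mark the median of all genes. Most intervals include 0, and *Hmgcs1* and *Msmo1* at M1-8 h and *Ch25h* at both LPS times have intervals away from 0, although no member was called.

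At M1-8 h the sterol enzymes had a median of -0.20, with 14 of 18 lower in wt, while the median of all genes was -0.07 and 61.9% of them were lower in wt. *Hmgcs1* had a log2 fold change of -0.67 ± 0.12 (SE; limma, adjusted p = 0.104) and *Msmo1* of -0.61 ± 0.11 (SE; limma, adjusted p = 0.101), or -0.58 and -0.52 with median of ratios scaling. *Idi1* (-0.67), *Hsd17b7* (-0.41), *Sqle* (-0.37) and *Lss* (-0.25) were the other enzymes with an unadjusted p under 0.05, all with lower values in wt. Outside the enzymes this held for *Stard4* (-0.50) and *Abca5* (-0.42), and with higher values in wt for *Ch25h* (0.67), *Apoe* (0.42) and *Npc2* (0.28). None passed the adjusted threshold on the log2(CPM + 1) scale. With median of ratios scaling 4 of the 18 enzymes had an unadjusted p under 0.05. *Abca5* is below 1 CPM after LPS, where this pseudocount shrinks differences, and on the deposited log2 CPM scale it was at -1.75 and called (limma, adjusted p = 0.0433). Without *Treml4-/-* M1-8 h replicate 1, which left 1 *Treml4-/-* library at that time, *Hmgcs1* was at -0.72.

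At M1-12 h 17 of the 18 enzymes had lower values in wt, with a median of -0.22, while 64.4% of all genes had lower values and a median of -0.05. *Sqle* (-0.42), *Hsd17b7* (-0.44), *Msmo1* (-0.35), *Fdps* (-0.30) and *Lss* (-0.27) had an unadjusted p under 0.05, with adjusted p of 0.397 or more in limma. With median of ratios scaling 3 of the 18 enzymes had an unadjusted p under 0.05. *Ch25h* had the largest difference, 1.11 ± 0.22 (SE; limma, adjusted p = 0.135), or 1.19 with median of ratios scaling. Its 2 wt libraries at 12 h differed from each other by more than the *Treml4-/-* libraries. Without wt M1-12 h replicate 1, the lower of the 2, the difference was 1.49, which rests on 1 wt library.

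Averaged over the 3 time points, *Ch25h* was the 1 member called, higher in wt by a log2 fold change of 0.64 ± 0.13 (SE; limma, adjusted p = 0.0498), where 0.414% of all genes were called. It was higher in wt in all 3 comparisons, although at M0 it had only 12 and 14 reads in wt and 10 and 5 reads in *Treml4-/-* libraries. Its adjusted p in limma ran from 0.0253 to 0.262 over 10 other settings. With single libraries left out, the call remained only without wt M0, wt M1-8 h or wt M1-12 h replicate 1. *Abca5* (-0.38; limma, adjusted p = 0.0256) and *Msmo1* (-0.33; limma, adjusted p = 0.0423) passed the p-value threshold with a fold change under 1.4. For *Abca5* that size rests on the pseudocount, since it was called at -0.84 with a pseudocount of 0.1 CPM, -1.03 with the deposited log2 CPM and -1.02 with voom (limma, adjusted p = 0.0121, 0.0176 and 0.0341). With median of ratios scaling *Msmo1* did not pass the p-value threshold. The lowest adjusted p of the sterol enzymes was 0.0723 there (limma).

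The LPS effect itself was compared between genotypes by an interaction term, and no member was called at 8 or 12 h, with 0.00827% of all genes called at each time. An unadjusted p under 0.05 was reached by 2 members at 8 h, *Hmgcs1* (-0.57) and *Msmo1* (-0.57; wt LPS effect minus that of *Treml4-/-* cells), and by 3 at 12 h, *Ch25h* (0.98), *Abca5* (0.36) and *Mylip* (-0.61). For all genes these shares were 6.67% and 3.82%. Within wt, 32 members were called at 8 h and 33 at 12 h, and within *Treml4-/-* cells 30 and 34, where 76.9%, 76.7%, 75.9% and 75.7% of all genes were called. With 2 replicates per condition, small differences between the genotypes were not detectable, and for *Srebf2* the 95% interval was -0.16 to 0.28 at M1-8 h and -0.31 to 0.13 at M1-12 h.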

How the data were processed

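RNA of BMDM from wt and *Treml4-/-* mice was sequenced in 12 libraries, 2 for each of 6 conditions, and groups and replicate numbers were taken from the sample labels. The libraries were stranded. The authors aligned reads with STAR to mm10, per the submitters' processing notes, and counted them on genes with Subread. The deposited values are log2 CPM, which the authors computed from read counts normalized to library size with a prior of 0.25 reads. The annotation and the use of strand in counting are not given in the sources used here. Whole reads were recovered for 100% of values (within 0.01 reads), from 48008751 to 58500792 per library, and turned into CPM.

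Log2(CPM + 1) was tested by limma 3.58.1 (R 4.3.3) in a model with a mean for each condition, no replicate block and a variance trend, over 12086 genes with at least 1 CPM in 2 libraries, with Benjamini-Hochberg adjustment over all of them and the study's thresholds (adjusted p under 0.05, fold change of 1.4). The test was checked on simulated data in which a small part of the genes changed, at 8 h only. The typical gene was not shifted there, so that check does not cover the scaling. Tables and figures were made with Python 3.11.15, numpy 2.4.6, pandas 2.3.3 and matplotlib 3.10.9. Positions and exons are from GENCODE M21 and promoters from RefSeq, both on GRCm38. Alternatives were another pseudocount, the deposited log2 CPM, other filters, replicate blocks, quantile normalization, median of ratios scaling, voom on the recovered reads, no variance trend, the libraries of a comparison alone, no minimum fold change and leaving out each library.

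The members and lists were chosen with earlier results of these data known. Named genes were all 37 members, *Treml4*, of the other pathway genes the 3 largest called rises and falls per LPS comparison, apart from a gene that is not reported here, and the 3 genes most correlated with the sterol enzymes.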

Additional observations from a re-analysis of the deposited data

How the results depend on the processing

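Members called after LPS, in either genotype or in their mean, and from 8 to 12 h were counted over both directions. These counts stayed within 1.5 times of the reported ones under every alternative. They ran from 23 to 33 at 8 h, 25 to 35 at 12 h and 19 to 29 between the LPS times. The interaction counts were 0 in each, and the other counts were less stable by direction. By direction the scaling moved the LPS counts. At 8 h 31 lower and 1 higher became 18 and 6 with median of ratios scaling and 22 and 3 with quantile normalization, and at 12 h 30 and 4 became 23 and 7 and 22 and 3, while the 21 other fits gave 30 to 31 lower and 1 higher at 8 h and 29 to 30 lower and 3 to 4 higher at 12 h. Scaling decided several signs. With median of ratios scaling the 8 h log2 fold changes of *Idi1* (0.14), *Fdps* (0.064), *Hsd17b7* (0.17), *Insig1* (0.070) and *Abca1* (0.75) and the 12 h values of *Pmvk* (0.016), *Srebf1* (0.16), *Scd2* (0.60), *Nr1h3* (0.20) and *Soat1* (0.87) were positive where the reported values were negative, and with quantile normalization so were *Idi1* (0.38) and *Hsd17b7* (0.42) at 8 h and *Pmvk* (0.046) at 12 h. By their construction these scalings take out the shift of the typical gene. Of the single values of members called in the reported fit, over all alternatives, 708 at 8 h and 762 at 12 h kept direction and call, 20 and 14 lost the call alone and 6 and 4 changed sign, and of those not called 6 and 1 gained a call in the same direction. With median of ratios scaling the calls lost were *Hmgcs1*, *Cyp51*, *Tm7sf2*, *Ebp*, *Sc5d*, *Srebf1*, *Mylip* and *Soat1* at 8 h and *Mvk*, *Insig1* and *Npc1* at 12 h, and with quantile normalization *Acat2*, *Fdps*, *Tm7sf2*, *Ebp*, *Sc5d*, *Insig1* and *Scd1* at 8 h and *Mvk*, *Tm7sf2*, *Hsd17b7*, *Srebf1*, *Insig1*, *Scd1*, *Nr1h3* and *Npc2* at 12 h.

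The genotype counts were small and moved with the settings. At M1-8 h 1 member, *Abca5*, was called with the deposited log2 CPM. For the mean over time points 2 members were called with a pseudocount of 0.1 CPM, 3 without a minimum fold change, and 0 without a filter, with a filter of 5 CPM, without a trend and with the replicate block within genotype, and the 1 called with the deposited log2 CPM and with voom was *Abca5* in place of *Ch25h*. Leaving out single libraries gave 0 to 1 members for the mean over time points. At the 3 single time points calls arose only in fits that left 1 library in a group, and the cause was not tested. The fit on the libraries of the comparison alone gives no separate value for that mean, since it uses all 12.

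The replicate number as a block gave 32 members at 8 h, 34 at 12 h and 1 for the mean of the genotype difference, and it changed no other call. The labels do not say that equal numbers share an animal or a day, and the deviations of replicate 1 correlated between genotypes across genes with r = -0.26 (M0), 0.30 (8 h) and 0.06 (12 h), and within a genotype between time points with r from -0.27 to 0.46, so the numbers were not taken as a pairing. Depth limits the weakest values, since *Ch25h* at M0 rested on 5 to 14 reads per library.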
